A study of Mus musculus with 18 samples.

Results

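The 50 genes described here encode ligands, receptors, SMAD proteins and antagonists of the TGF-beta, activin and BMP pathways, together with the 4 ID proteins whose genes are classical targets of BMP signals. They were chosen by gene symbol and are 50 of the 46078 genes in the RNA-seq count table. In the ATAC-seq table, which counts the reads that mark open chromatin, 60 of 111664 peaks had their middle within 1000 bp of an annotated transcript start of these genes, and these peaks belonged to 45 of the 50 genes.

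The counts came from lung tumors of a mouse model of small cell lung cancer (SCLC), in 3 genotypes with 3 libraries per genotype and assay, from 3 animals of each genotype by the labels. TKO mice carried floxed alleles of Rb1 and p53 and of another retinoblastoma family gene, which the labels give as Rbl1 and the study's text in places as Rbl2. CARM1 knockout mice carried the same alleles and a floxed Carm1, which encodes an arginine methyltransferase. NFIB mutant mice carried the TKO alleles and NfibR388K, a germline knock-in that replaces by lysine the arginine of the transcription factor NFIB that CARM1 methylates, so that the animal's other cells carry it too. Adenovirus with Cre recombinase was given into the trachea at 8 weeks of age, and tumors were taken 28 weeks later. The promoter driving Cre was not given in the sources used here, so the lung cells in which it was active cannot be named. The study's methods describe sorting by tdTomato, a reporter that Cre switches on, while its results name tumor biopsies. Each mutant was compared with TKO, and the mutants with each other, which asks what losing the methyltransferase or its target residue changes in these tumors.

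TGF-beta and activin bind a type II receptor that recruits and phosphorylates a type I receptor, which in turn phosphorylates SMAD2 and SMAD3. BMPs signal by the same scheme through other receptor pairs to SMAD1, SMAD5 and SMAD9, and both branches share SMAD4 as the partner that carries the complex to DNA. Endoglin and betaglycan present ligands to the receptors, while noggin, chordin, gremlin and follistatin trap ligands outside the cell, and SMAD6, SMAD7 and the pseudoreceptor BAMBI damp the signal. In the lung, TGF-beta is best known for driving fibroblasts to make matrix and for arresting the growth of epithelial cells.

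RNA-seq libraries held 15848866 to 20915057 counts on genes and ATAC-seq libraries 26917178 to 47653979 counts on peaks. Levels are given as CPM, counts per 1000000 counts after scaling by edgeR's TMM factors, always in the order of libraries 1, 2 and 3. A value of 3 counts, taken as the limit of detection for counting error only, corresponds to 0.131 to 0.203 CPM in RNA-seq. Markers of cell types did not follow the SCLC label in every library. The summed level of 12 neuroendocrine markers was 1734 to 2546 CPM in TKO, 59.3 to 2045 CPM in CARM1 knockout and 33.6 to 51.1 CPM in NFIB mutant libraries. CARM1 knockout replicate 3 held 2045 CPM, within the range of TKO, and the other CARM1 knockout libraries 59.3 and 189 CPM. The summed level of 8 fibroblast markers was 20.3 to 73.2 CPM in TKO, 15335 to 27006 CPM in CARM1 knockout and 10639 to 16803 CPM in NFIB mutant libraries. Of these 8 of 8 were called higher in CARM1 knockout and 7 of 8 in NFIB mutant tumors. The 8 leukocyte markers summed to 3.63 to 54.3 CPM in TKO, 179.7 to 2670.1 CPM in CARM1 knockout and 26.8 to 526 CPM in NFIB mutant libraries. The 8 lung epithelial markers summed to 282 to 632 CPM in TKO, 2.78 to 877 CPM in CARM1 knockout and 2.86 to 1066 CPM in NFIB mutant libraries. These sums hide different directions. Nkx2-1 gave most of the TKO sums, at 601, 386 and 236 CPM, and was at most 102 CPM in a mutant library, without a call. Cdh1, Krt8 and Krt18 were at most 3.22 CPM in TKO and were called higher in NFIB mutant tumors, and Foxj1 was called lower in both mutants. The 4 mesothelial markers summed to 0.399 to 14.7 CPM in TKO, 5.56 to 94.7 CPM in CARM1 knockout and 44.7 to 93.8 CPM in NFIB mutant libraries. The 6 endothelial markers summed to 3.12 to 17.4 CPM in TKO, 2.57 to 11.6 CPM in CARM1 knockout and 0.547 to 4.56 CPM in NFIB mutant libraries, with Emcn at 0 in all libraries. The part of these markers in the results below was not tested. The share of reads in no annotated gene also moved with genotype, from 10 to 12.2% in TKO to 3.65 to 5.17% in the mutants. Nfib itself was at 420.2, 579.9 and 571 CPM in TKO, 74.5, 216 and 87.2 CPM in CARM1 knockout and 105, 83.3 and 91.4 CPM in NFIB mutant libraries. Carm1 was at 97.7, 103 and 44.5 CPM for TKO, 63.4, 79.1 and 50.8 CPM for CARM1 knockout and 100.4, 104 and 102 CPM for NFIB mutant. Its log2 fold change in the knockout, -0.34 ± 0.31, adjusted p = 0.410, was not called, and counts over the whole gene do not resolve the deleted part.

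More of the pathway's genes rose than fell in both mutants. The 15514 genes that passed a filter on low counts were compared by edgeR's quasi-likelihood test, and p-values were adjusted after Benjamini and Hochberg. Calls needed an adjusted p below 0.1 and a log2 fold change of 0.8 or more in size. Fold changes are given with their standard error, first for CARM1 knockout and then for NFIB mutant tumors, each against TKO. Of the 50 members 45 were tested, and Bmp5, Bmp7, Gdf5, Gdf6 and Nog had too few counts. In CARM1 knockout tumors 15 of the 45 were called higher than in TKO (33.3%, against 20.5% of all genes tested) and 5 were called lower (11.1%, against 18.3% of all genes). In NFIB mutant tumors 16 were called higher (35.6%, against 22.3% of all genes) and 6 lower (13.3%, against 23.5% of all genes). The median log2 fold change of the tested members was 0.43 and 0.76, against -0.03 and -0.05 over all genes, and the median absolute value was 1.67 and 1.76, against 0.92 and 1.02. Both comparisons share the TKO libraries. In 15 members all 6 mutant libraries lay above all 3 TKO libraries (22.3% of all tested genes did so) and in 6 members all lay below (23.3% of all tested genes), while 29 overlapped. CARM1 knockout replicate 3 was the mutant library with a neuroendocrine sum within the range of TKO. When it was left out, edgeR's test of that genotype against TKO gave 16 higher and 5 lower calls, in place of 15 and 5. That fit tested 48 members, in place of 45, and called 3207 of all 16185 tested genes higher and 3209 lower. Higher calls then made up 76.2% of member calls, in place of 75%, and 50% over all genes, in place of 52.9%. In bulk libraries, fewer cells of a type and less RNA per cell cannot be told apart.

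**Figure D1:**
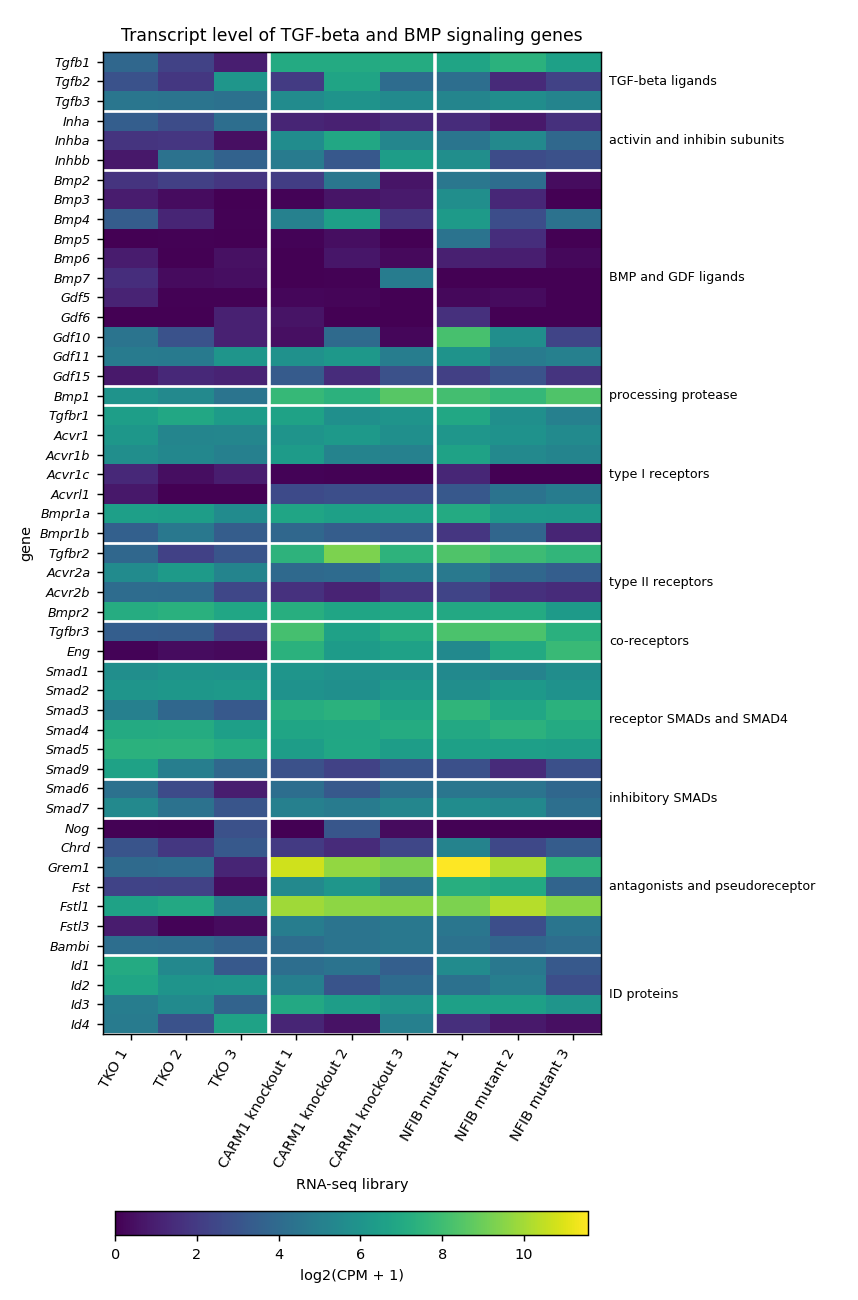
Level of each of the 50 genes in each of the 9 RNA-seq libraries as log2(CPM + 1), with rows ordered by role and columns by genotype. Eng, Tgfbr2, Tgfbr3, Grem1, Fstl1 and Tgfb1 are darker (lower) in the 3 TKO columns and brighter (higher) in the 6 mutant columns, while Smad2, Smad4, Bmpr1a and Bmpr2 keep a similar shade throughout.

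**Figure D2:**
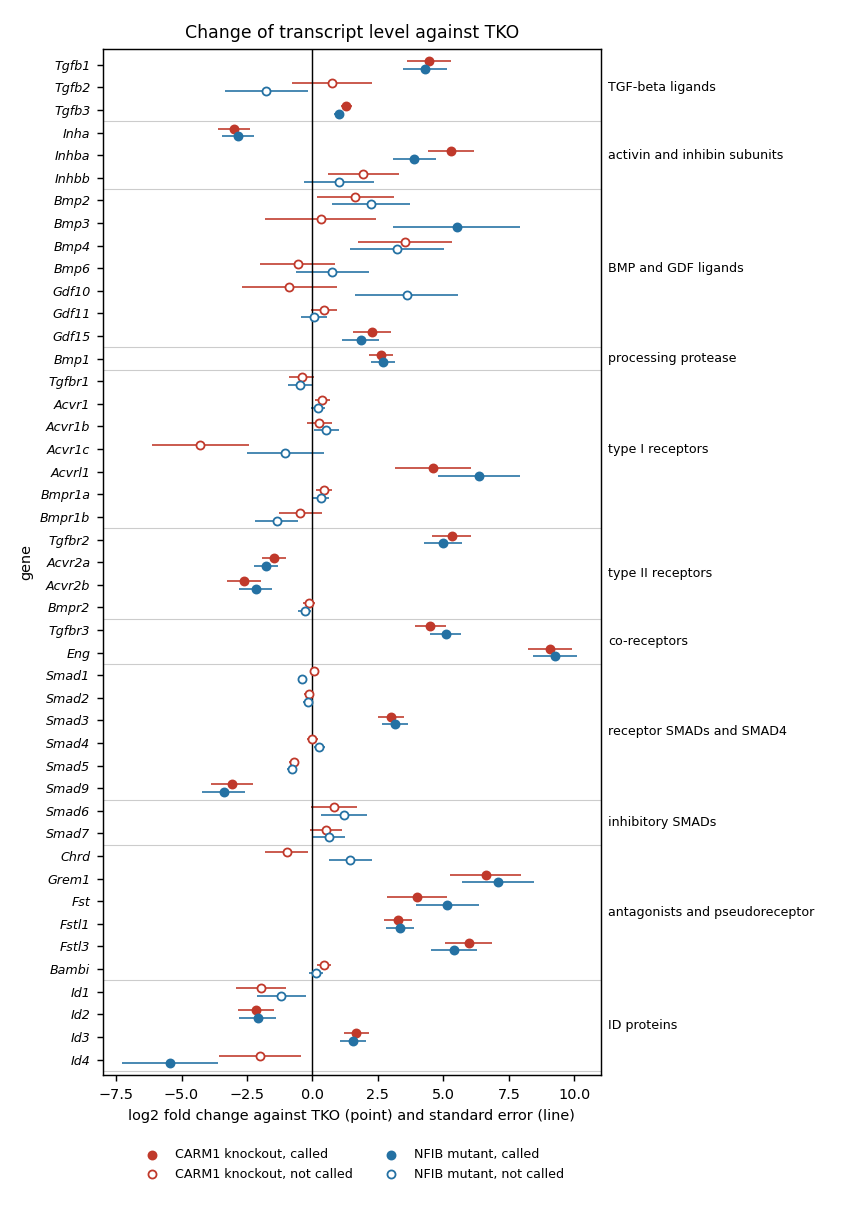
Log2 fold change against TKO of the 45 tested genes in CARM1 knockout and NFIB mutant tumors, with bars of 1 standard error and filled symbols for called genes. Eng lies farthest to the right at 9.06 and 9.27, and Inha, Smad9 and Acvr2b are called on the left in both mutants.

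Of the 3 TGF-beta ligands, Tgfb1 and Tgfb3 rose in both mutants. Tgfb1, the isoform best known from immune cells and fibrosis (chr7:25687002-25705077, GRCm38), was at 13.7, 3.94 and 0.975 CPM for TKO, 134, 134 and 139 CPM for CARM1 knockout and 109, 166 and 94.4 CPM for NFIB mutant. All 6 mutant libraries lay above all TKO libraries, although the TKO libraries differed widely among themselves. The log2 fold change was 4.45 ± 0.85 and 4.31 ± 0.84 (adjusted p = 0.00714 and 0.00623). Tgfb3, a ligand of the same receptors, was at 22.1, 21.2 and 18.7 CPM for TKO, 47.5, 59.9 and 45.1 CPM for CARM1 knockout and 37.5, 50.4 and 36.3 CPM for NFIB mutant. Its mutant libraries did not overlap TKO, and the change was smaller and more even, at 1.30 ± 0.20 and 1.0 ± 0.20 (adjusted p = 0.00330 and 0.00669). With scaling by library totals the Tgfb3 call was lost in NFIB mutant tumors, at 0.68. Tgfb2, which needs betaglycan for efficient binding, was at 6.58, 2.67 and 66.6 CPM for TKO, 2.98, 107 and 16.2 CPM for CARM1 knockout and 17.0, 1.6 and 3.81 CPM for NFIB mutant. Its values overlapped in all genotypes and it was not called (adjusted p = 0.728 and 0.387).

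Of the activin and inhibin subunits, Inhba rose and Inha fell. Inhba, whose product dimerizes to activin A, was at 2.35, 2.58 and 0.399 CPM for TKO, 47.7, 121 and 38.8 CPM for CARM1 knockout and 21.7, 43.0 and 14.2 CPM for NFIB mutant. Every mutant library exceeded every TKO library, and the log2 fold change was 5.28 ± 0.87 and 3.88 ± 0.82 (adjusted p = 0.00416 and 0.00828). Inha, the alpha subunit that turns activin dimers into the antagonist inhibin, was at 10, 5.47 and 16.9 CPM for TKO, 1.29, 1.11 and 1.69 CPM for CARM1 knockout and 1.76, 0.740 and 2.03 CPM for NFIB mutant. All mutant libraries were lower than all TKO libraries, with log2 fold changes of -2.98 ± 0.61 and -2.83 ± 0.61 (adjusted p = 0.00915 and 0.00866). Inhbb, the other beta subunit, ranged from 0.673 to 19.5 CPM in TKO, from 8.22 to 86.7 CPM in CARM1 knockout and from 5.36 to 52.3 CPM in NFIB mutant libraries, so the groups overlapped and no call was made.

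Among 11 BMP and GDF ligands few calls were made, and those rested on low or uneven counts. Gdf15, a distant relative known as a stress-response hormone, was at 0.721, 1.53 and 1.24 CPM for TKO, 8.95, 1.81 and 6.24 CPM for CARM1 knockout and 3.53, 6.72 and 2.35 CPM for NFIB mutant. Its mutant libraries all lay above TKO and it was called higher, at 2.27 ± 0.72 and 1.84 ± 0.71 (adjusted p = 0.0414 and 0.0666). These calls were lost without CARM1 knockout replicate 1 or TKO replicate 1 in the first comparison and in 7 of 11 alternatives in the second. Bmp3, an atypical BMP that opposes the others, was at 52.4, 1.42 and 0 CPM in NFIB mutant libraries and at most 0.865 CPM in the others, so that NFIB mutant replicate 1 held nearly all of its counts. Its call as higher there (log2 fold change 5.5 ± 2.43, adjusted p = 0.0992) was lost in 9 of 11 alternatives. Bmp4, a ligand made by lung mesenchyme, was at 9.80, 1.27 and 0.0443 CPM for TKO, 33.1, 93.1 and 2.36 CPM for CARM1 knockout and 78.2, 5.73 and 19.8 CPM for NFIB mutant. It overlapped between genotypes and was not called (adjusted p = 0.158 and 0.172). Gdf10 had its highest values in NFIB mutant replicates 1 and 2 (291, 51.0 and 4.26 CPM) and was not called. Gdf11 and Bmp2 ranged from 26.3 to 71.6 CPM and from 0.318 to 23.3 CPM over all libraries with overlapping groups, and Bmp6 did not exceed 1.03 CPM anywhere. Bmp5, Bmp7, Gdf5 and Gdf6 were not tested, and of these Bmp5 reached 20.3 CPM in NFIB mutant replicate 1 and Bmp7 28.1 CPM in CARM1 knockout replicate 3. Bmp1, a metalloprotease that shares its name with the BMPs but cleaves procollagen and chordin, was at 61.3, 43.1 and 20.8 CPM for TKO, 215, 173 and 376 CPM for CARM1 knockout and 274, 208 and 336 CPM for NFIB mutant. It rose in every mutant library, with log2 fold changes of 2.61 ± 0.46 and 2.71 ± 0.46 (adjusted p = 0.00534 and 0.00369).

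Of the 7 type I receptors only Acvrl1 was called. Tgfbr1, the type I receptor for TGF-beta, was at 88.0, 120.2 and 81.7 CPM for TKO, 102, 53.2 and 63.4 CPM for CARM1 knockout and 123, 53.9 and 32.0 CPM for NFIB mutant. The groups overlapped, and the log2 fold change was -0.41 ± 0.48 and -0.47 ± 0.48 (adjusted p = 0.526 and 0.445). Without NFIB mutant replicate 1 it was called lower in NFIB mutant tumors, at -1.16. Bmpr1a, a type I receptor for BMPs, was at 90.4, 87.1 and 47.3 CPM for TKO, 109, 95.5 and 98.9 CPM for CARM1 knockout and 134, 74.7 and 71.9 CPM for NFIB mutant. All CARM1 knockout libraries lay just above TKO while the NFIB mutant libraries overlapped it, and neither difference was called, at 0.43 ± 0.32 and 0.32 ± 0.32 (adjusted p = 0.307 and 0.433). Acvr1, Acvr1b and Bmpr1b, which serve BMPs, activin and BMPs in turn, ranged over all libraries from 37.2 to 72.7, from 31.9 to 99.3 and from 1.27 to 23.7 CPM and were not called. Acvr1c, a receptor for nodal and activin, did not exceed 1.54 CPM and was not called. Acvrl1 (ALK1), the type I receptor best known from endothelial cells, rose. It was at 0.673, 0 and 0 CPM for TKO, 5.15, 5.95 and 5.56 CPM for CARM1 knockout and 8.15, 20.2 and 27.6 CPM for NFIB mutant, higher in all mutant libraries, with a log2 fold change of 4.61 ± 1.45 and 6.36 ± 1.56 (adjusted p = 0.0409 and 0.0145). Per kilobase of exon, a scale on which genes can be compared, the mean level in TKO was 14.8 CPM for Tgfbr1, 11.8 for Bmpr1a, 10.1 for Acvr1 and 9.3 for Acvr1b, and in each mutant these 4 stood between 10.7 and 15.9 CPM per kilobase.

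Of the 4 type II receptors Tgfbr2 rose, Acvr2a and Acvr2b fell, and Bmpr2 was not called. Tgfbr2, the receptor that binds TGF-beta itself (chr9:116084293-116175360), was at 13.6, 3.76 and 7.22 CPM for TKO, 177, 623 and 179 CPM for CARM1 knockout and 337, 244 and 194 CPM for NFIB mutant. The highest TKO library lay far under the lowest mutant library. The log2 fold change was 5.31 ± 0.73 and 4.98 ± 0.72 (adjusted p = 0.00232 and 0.00205), and the ratio of means 39.8 and 31.5. Acvr2a, a receptor for activin, was at 46.3, 79.2 and 36.6 CPM for TKO, 14.7, 15.5 and 27.8 CPM for CARM1 knockout and 24.6, 13.4 and 9.85 CPM for NFIB mutant, with log2 fold changes of -1.48 ± 0.45 and -1.76 ± 0.46 (adjusted p = 0.0372 and 0.0179). Acvr2b (chr9:119402118-119434995) was at 16.2, 15.4 and 4.56 CPM for TKO, 2.17, 1.22 and 2.42 CPM for CARM1 knockout and 4.26, 2.03 and 1.72 CPM for NFIB mutant, with -2.63 ± 0.65 and -2.17 ± 0.64 (adjusted p = 0.0178 and 0.0275). Neither overlapped between TKO and mutants, and the Acvr2a call in CARM1 knockout was lost without CARM1 knockout replicate 1 or 2 or TKO replicate 2, at adjusted p up to 0.12. Bmpr2, the BMP type II receptor, was at 141, 161 and 115 CPM for TKO, 149.9, 109.7 and 122 CPM for CARM1 knockout and 126, 135 and 78.9 CPM for NFIB mutant. Its values overlapped and it was not called, at -0.13 ± 0.24 and -0.29 ± 0.24 (adjusted p = 0.694 and 0.346). Per kilobase of exon, Tgfbr2 was the lowest of the 4 in TKO and the highest in both mutants, with mean levels of 1.0 for TKO, 39.8 for CARM1 knockout and 31.6 for NFIB mutant. Acvr2a stood at 9.50 for TKO, 3.40 for CARM1 knockout and 2.80 for NFIB mutant, Bmpr2 at 7.73 for TKO, 7.07 for CARM1 knockout and 6.31 for NFIB mutant, and Acvr2b at 3.06 for TKO, 0.493 for CARM1 knockout and 0.679 for NFIB mutant. The promoters of Tgfbr2, at chr9:116175314-116175613 (minus strand), and Acvr2b, at chr9:119401928-119402227 (plus strand), are shown because the transcript and the open chromatin at each start moved together, up in the first and down in the other. Each is 250 bases before to 50 after the start from RefSeq on GRCm38.p6, written 5′ to 3′, and motifs are in capitals where the window holds 1 of those searched, which neither did.
Tgfbr2: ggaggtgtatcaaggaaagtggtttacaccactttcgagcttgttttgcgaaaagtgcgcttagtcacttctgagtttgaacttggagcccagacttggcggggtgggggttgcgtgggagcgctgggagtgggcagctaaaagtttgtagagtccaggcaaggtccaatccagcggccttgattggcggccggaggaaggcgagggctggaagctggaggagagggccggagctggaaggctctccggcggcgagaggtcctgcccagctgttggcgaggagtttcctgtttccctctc
Acvr2b: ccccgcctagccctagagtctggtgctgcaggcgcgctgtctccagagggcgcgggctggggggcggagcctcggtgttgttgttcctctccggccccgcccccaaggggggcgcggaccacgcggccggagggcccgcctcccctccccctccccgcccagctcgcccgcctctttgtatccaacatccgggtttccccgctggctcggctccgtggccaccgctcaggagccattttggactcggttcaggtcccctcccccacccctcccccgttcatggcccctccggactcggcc

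Both co-receptors rose, and Eng gave the largest change of all members. Eng, which encodes endoglin and is used as a marker of endothelial and mesenchymal stromal cells (chr2:32646595-32682669), was at 0.0961, 0.306 and 0.222 CPM for TKO, 169, 80.5 and 98.7 CPM for CARM1 knockout and 44.3, 129.8 and 227 CPM for NFIB mutant. TKO libraries were near the limit of detection and every mutant library was far above it. The log2 fold change was 9.06 ± 0.84 and 9.27 ± 0.84 (adjusted p = 0.00059 and 0.000432). Of the 6 endothelial markers, whose sums overlapped between genotypes, 4 were tested. Cdh5 was called higher in both mutants and was at 0.0480, 0 and 0 CPM for TKO, 0.339, 0.70 and 0.169 CPM for CARM1 knockout and 0.243, 2.77 and 0.635 CPM for NFIB mutant, while Kdr was called lower in NFIB mutant tumors and was at 1.92, 0.262 and 16.2 CPM for TKO, 4.27, 1.40 and 10.7 CPM for CARM1 knockout and 0, 0.493 and 0.191 CPM for NFIB mutant. Pecam1 reached 4.27 CPM, in CARM1 knockout replicate 1, Tek reached 4.24 CPM, in TKO replicate 2, Tie1 did not exceed 0.0608 CPM and Emcn was at 0 in all libraries. Tgfbr3, which encodes betaglycan, was at 9.95, 9.58 and 3.68 CPM for TKO, 281, 96.5 and 147 CPM for CARM1 knockout and 312, 313 and 161 CPM for NFIB mutant. All mutant libraries lay above all TKO libraries, and the log2 fold change was 4.50 ± 0.59 and 5.08 ± 0.60 (adjusted p = 0.00188 and 0.00105). Per kilobase of exon, mean levels of Eng were 0.0514 for TKO, 28.6 for CARM1 knockout and 33.0 for NFIB mutant, and those of Tgfbr3 1.18 for TKO, 26.7 for CARM1 knockout and 40.0 for NFIB mutant. The Eng promoter, at chr2:32646345-32646644 (plus strand), lay inside a peak that opened in both mutants and holds the NFI core TTGGCA, the letters bound by proteins of the NFIB family, in capitals at base 86 of the window.
Eng: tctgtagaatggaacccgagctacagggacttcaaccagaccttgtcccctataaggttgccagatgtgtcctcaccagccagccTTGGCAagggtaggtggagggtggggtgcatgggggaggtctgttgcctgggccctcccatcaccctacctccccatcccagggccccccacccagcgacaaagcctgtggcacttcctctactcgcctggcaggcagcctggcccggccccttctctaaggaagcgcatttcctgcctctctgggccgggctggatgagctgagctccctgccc

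Among the 6 genes of receptor SMADs and SMAD4, Smad3 rose, Smad9 fell and the others were not called. Smad3, a mediator of TGF-beta and activin (chr9:63646767-63757994), was at 31.7, 13.4 and 8.33 CPM for TKO, 146, 168 and 111 CPM for CARM1 knockout and 188, 116 and 166 CPM for NFIB mutant. All mutant libraries lay above all TKO libraries, with log2 fold changes of 2.99 ± 0.49 and 3.13 ± 0.50 (adjusted p = 0.00416 and 0.00277). Smad2, its partner in the same branch, was at 63.9, 68.0 and 74.8 CPM for TKO, 59.1, 53.4 and 75.2 CPM for CARM1 knockout and 52.4, 72.9 and 58.6 CPM for NFIB mutant. The groups overlapped, at -0.14 ± 0.19 and -0.17 ± 0.19 (adjusted p = 0.589 and 0.494). Smad4, common to both branches, was at 135, 137 and 90.9 CPM for TKO, 109, 114 and 136 CPM for CARM1 knockout and 126, 174 and 134 CPM for NFIB mutant, which overlapped too, at -0.01 ± 0.21 and 0.26 ± 0.21 (adjusted p = 0.974 and 0.345). Smad9, a receptor SMAD of the BMP branch (chr3:54755582-54801257), was at 100.4, 30.2 and 14.1 CPM for TKO, 6.37, 3.85 and 7.02 CPM for CARM1 knockout and 6.02, 1.66 and 6.04 CPM for NFIB mutant. It fell in every mutant library, to below the lowest TKO library, with log2 fold changes of -3.07 ± 0.80 and -3.40 ± 0.82 (adjusted p = 0.0225 and 0.0136). Smad5, another BMP SMAD, was at 168, 171 and 137 CPM for TKO, 87.2, 118 and 85.3 CPM for CARM1 knockout and 93.4, 93.0 and 86.8 CPM for NFIB mutant. Every mutant library was below TKO and adjusted p was 0.0167 and 0.00884, but the log2 fold change of -0.71 and -0.7995 was short of the minimum of 0.8, and it was called lower in NFIB mutant tumors in 5 of 11 alternatives. Smad1, the other BMP SMAD, ranged from 35.3 to 63.9 CPM and was not called. Per kilobase of exon, the mean level of Smad3 was 3.22 for TKO, 25.5 for CARM1 knockout and 28.2 for NFIB mutant, that of Smad2 was 7.85 for TKO, 7.13 for CARM1 knockout and 6.98 for NFIB mutant, and that of Smad4 was 32.5 for TKO, 32.3 for CARM1 knockout and 38.9 for NFIB mutant. Smad9 was at 8.98 for TKO, 1.07 for CARM1 knockout and 0.852 for NFIB mutant, and Smad5 at 21.4 for TKO, 13.1 for CARM1 knockout and 12.3 for NFIB mutant. The promoter of Smad9, at chr3:54755332-54755631 (plus strand), is shown because its peak closed as its transcript fell, and it holds GGCGCC, a motif bound by BMP SMADs, in capitals at base 200.
Smad9: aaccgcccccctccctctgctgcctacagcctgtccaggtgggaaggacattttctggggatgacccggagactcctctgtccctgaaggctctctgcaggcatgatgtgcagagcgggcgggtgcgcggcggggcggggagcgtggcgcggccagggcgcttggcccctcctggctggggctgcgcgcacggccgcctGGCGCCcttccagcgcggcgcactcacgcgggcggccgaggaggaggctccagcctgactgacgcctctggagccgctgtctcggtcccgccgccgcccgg

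The inhibitory SMADs, which BMP and TGF-beta signals induce in many cells as feedback, were not called. Smad6 was at 18.8, 5.25 and 0.931 CPM for TKO, 17.2, 8.34 and 18.2 CPM for CARM1 knockout and 22.7, 21.0 and 13.7 CPM for NFIB mutant. Smad7 was at 42.1, 19.4 and 7.18 CPM for TKO, 31.8, 27.5 and 38.1 CPM for CARM1 knockout and 48.5, 41.1 and 17.5 CPM for NFIB mutant. For both, the TKO values spread widely and the groups overlapped.

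Of the antagonists and the pseudoreceptor Bambi, 4 of the 6 genes tested rose in both mutants. Grem1, which encodes the BMP antagonist gremlin (chr2:113746164-113758646), was at 14.9, 16.1 and 1.29 CPM for TKO, 1691, 842 and 640.1 CPM for CARM1 knockout and 3047, 1145 and 180.1 CPM for NFIB mutant. The TKO libraries did not overlap the mutants, and the log2 fold change was 6.62 ± 1.36 and 7.08 ± 1.39 (adjusted p = 0.00936 and 0.00631). Fst, which encodes the activin trap follistatin, was at 4.04, 3.94 and 0.310 CPM for TKO, 42.2, 66.6 and 22.8 CPM for CARM1 knockout and 153, 129.6 and 12.2 CPM for NFIB mutant, higher in all mutant libraries, with log2 fold changes of 3.99 ± 1.15 and 5.15 ± 1.21 (adjusted p = 0.0307 and 0.0125). Fstl3, a secreted relative of follistatin that also binds activin, was at 0.817, 0.0875 and 0.266 CPM for TKO, 28.5, 21.1 and 24.0 CPM for CARM1 knockout and 22.1, 5.79 and 21.6 CPM for NFIB mutant. No mutant library overlapped TKO, and the log2 fold change was 5.96 ± 0.90 and 5.39 ± 0.88 (adjusted p = 0.00312 and 0.00315). Fstl1, a more distant relative abundant in mesenchyme, was at 100.1, 127 and 31.5 CPM for TKO, 982, 778 and 739 CPM for CARM1 knockout and 625, 1239.8 and 726 CPM for NFIB mutant, with 3.27 ± 0.53 and 3.33 ± 0.53 (adjusted p = 0.00396 and 0.00291). Chrd, which encodes the BMP antagonist chordin, ranged from 1.69 to 35.4 CPM, and Bambi, a receptor without a kinase, from 11.8 to 24 CPM, both with overlapping groups and no call. Nog, the gene of noggin, was at most 7.64 CPM and was not tested. Per kilobase of exon, Grem1 had the highest mean level of all 50 members in both mutants, at 2.59 for TKO, 255 for CARM1 knockout and 351 for NFIB mutant, followed by Fstl1 at 17.5 for TKO, 169.5 for CARM1 knockout and 176 for NFIB mutant.

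**Figure D3:**
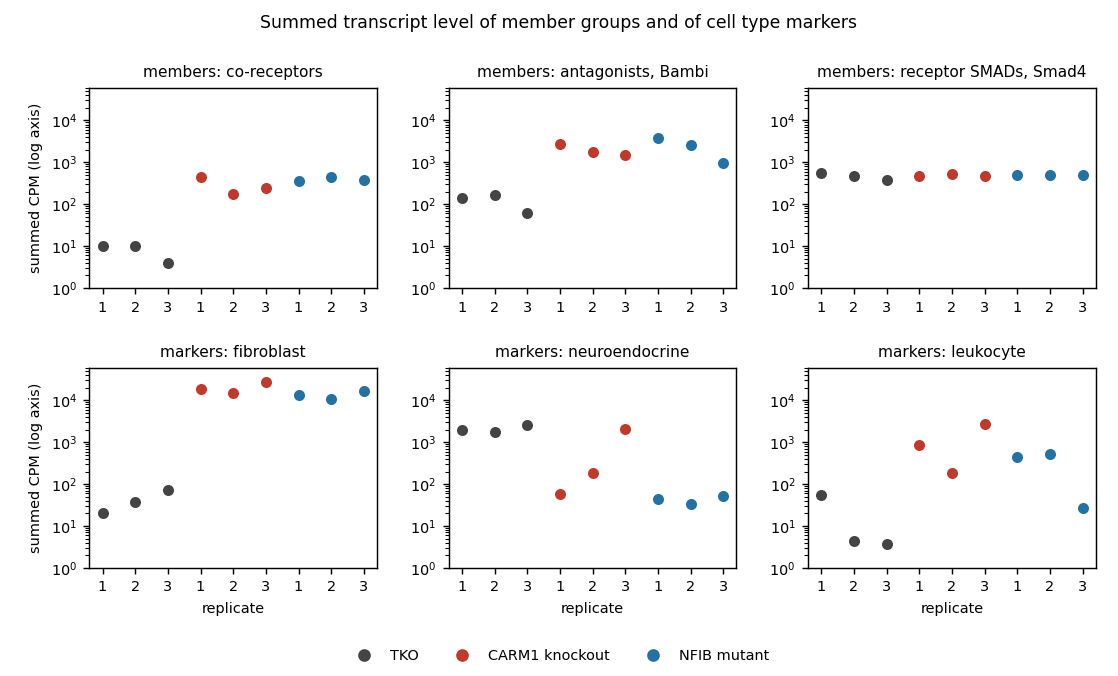
Summed CPM per library on a log axis for 3 groups of members (co-receptors, antagonists with Bambi, and receptor SMADs with Smad4) and for 3 marker lists (fibroblast, neuroendocrine, leukocyte), with 1 point per library. Co-receptors sum to 3.9 to 10 CPM in TKO and at least 177 CPM in each mutant library, and fibroblast markers are high in all 6 mutant libraries. CARM1 knockout replicate 3 is the only mutant library with a neuroendocrine sum within the range of TKO, of which Calca alone gives 833 CPM.

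The sums of co-receptors, antagonists, TGF-beta ligands and type II receptors separated mutant from TKO libraries, as the fibroblast markers did. The co-receptors summed to 3.90 to 10 CPM in TKO, 177 to 449.9 CPM in CARM1 knockout and 356 to 442 CPM in NFIB mutant libraries. The antagonists with Bambi summed to 59.9 to 166 CPM in TKO, 1455 to 2763 CPM in CARM1 knockout and 966 to 3903 CPM in NFIB mutant libraries. The receptor SMADs with Smad4 summed to 383 to 552 CPM in TKO, 472 to 515 CPM in CARM1 knockout and 493 to 509.6 CPM in NFIB mutant libraries, a range that overlapped between all genotypes. So did the sums of type I receptors, inhibitory SMADs, BMP and GDF ligands and ID proteins. Fibroblast markers were at most 73.2 CPM in TKO and at least 10639 CPM in each mutant library, and their part in the rise of co-receptors and antagonists was not tested. CARM1 knockout replicate 3, with the highest fibroblast sum at 27006 CPM, had 246 CPM for co-receptors and 1455 CPM for antagonists, both within the range of the other mutant libraries.

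The ID genes, which encode inhibitors of basic helix-loop-helix factors and which BMP signals induce, went in different directions. Id1 was at 134, 40.7 and 8.46 CPM for TKO, 17.1, 19.9 and 10.2 CPM for CARM1 knockout and 47.6, 23.8 and 8.26 CPM for NFIB mutant. TKO values spread widely and overlapped the mutants, and the log2 fold change of -1.95 ± 0.96 and -1.20 ± 0.94 (adjusted p = 0.144 and 0.323) was not called, although DESeq2 and the fit without TKO replicate 3 called it lower in CARM1 knockout. Id2 (chr12:25093799-25097140) was at 110.2, 61.6 and 64.1 CPM for TKO, 30.8, 7.0 and 15.4 CPM for CARM1 knockout and 18.7, 30.4 and 5.97 CPM for NFIB mutant. All mutant libraries were lower than all TKO libraries, with -2.15 ± 0.69 and -2.10 ± 0.69 (adjusted p = 0.0450 and 0.0414), and the call was lost without TKO replicate 1 in both mutants and without CARM1 knockout replicate 2 or 3, at adjusted p up to 0.122. Id3 (chr4:136143497-136145755) went the other way, at 28.9, 45.5 and 11.8 CPM for TKO, 127, 84.9 and 62.7 CPM for CARM1 knockout and 93.5, 93.8 and 64.1 CPM for NFIB mutant. Its lowest mutant library exceeded its highest TKO library, with log2 fold changes of 1.67 ± 0.48 and 1.54 ± 0.48 (adjusted p = 0.0308 and 0.0339). Id4 was at 27.3, 6.47 and 101 CPM for TKO, 1.29, 0.467 and 31.7 CPM for CARM1 knockout and 1.95, 0.740 and 0.381 CPM for NFIB mutant. It was called lower in NFIB mutant tumors (-5.45 ± 1.83, adjusted p = 0.0437) but not in CARM1 knockout tumors (-2.01 ± 1.55, adjusted p = 0.333), where replicate 3 stood at 31.7 CPM, and without that library it was called lower there too, at -5.64 with an adjusted p of 0.0266. The difference between the mutants was not called (adjusted p = 0.586), and the NFIB mutant call was lost without NFIB mutant replicate 2 or 3 or TKO replicate 3. Per kilobase of exon, Id1 was the highest ID gene in TKO and Id3 the highest in both mutants. In TKO the means were 52.5 for Id1, 32.2 for Id2, 16.0 for Id3 and 11.7 for Id4. In CARM1 knockout tumors they were 13.6, 7.29, 51.1 and 2.90, and in NFIB mutant tumors 22.9, 7.53, 46.8 and 0.266, all in CPM per kilobase. The promoters of Id2, at chr12:25096043-25096342 (minus strand), and Id3, at chr4:136143572-136143871 (plus strand), are shown because these relatives moved in opposite directions. That of Id2 holds GGCGCC in capitals at base 20, and that of Id3 holds no searched motif.
Id2: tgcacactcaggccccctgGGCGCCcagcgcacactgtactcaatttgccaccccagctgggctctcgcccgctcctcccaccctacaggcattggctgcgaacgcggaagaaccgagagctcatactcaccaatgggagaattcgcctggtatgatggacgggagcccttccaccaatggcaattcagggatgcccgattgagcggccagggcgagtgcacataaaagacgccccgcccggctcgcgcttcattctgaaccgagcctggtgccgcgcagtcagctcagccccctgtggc
Id3: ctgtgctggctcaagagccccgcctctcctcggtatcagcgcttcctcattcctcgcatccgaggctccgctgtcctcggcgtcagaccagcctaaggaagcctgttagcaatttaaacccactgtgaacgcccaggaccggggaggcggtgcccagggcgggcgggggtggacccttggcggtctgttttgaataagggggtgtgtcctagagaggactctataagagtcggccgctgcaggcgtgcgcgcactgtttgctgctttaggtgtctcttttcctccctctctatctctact

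**Figure D4:**
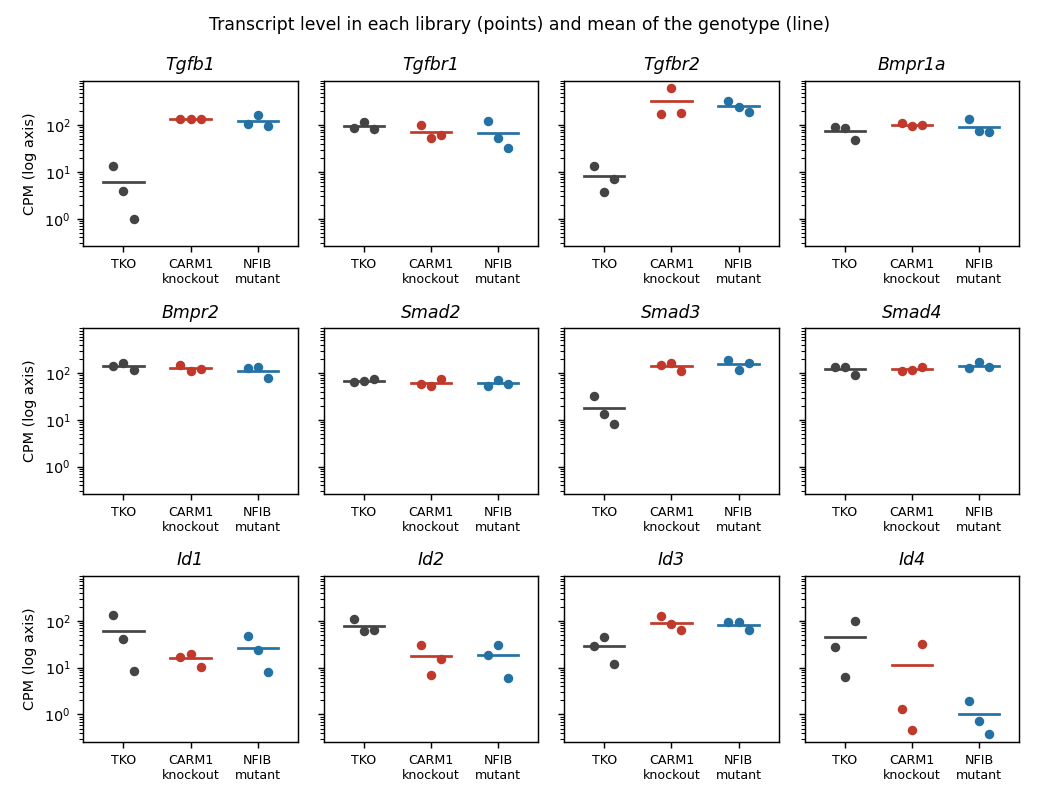
CPM in each library, on a log axis, of 12 genes that carry the signal from ligand to target, with 1 point per library and a line at the mean of each genotype. Tgfb1, Tgfbr2 and Smad3 are higher in every mutant library than in any TKO library, Tgfbr1, Bmpr1a, Bmpr2, Smad2 and Smad4 overlap, and Id2 and Id3 separate in opposite directions.

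Open chromatin at the starts of these genes was gained and lost in nearly equal number. Peaks were compared with the same edgeR test over 111116 peaks and calls needed an adjusted p below 0.1 and a log2 fold change of 0.5 or more in size. Of the 60 start-site peaks of members, 16 were called higher in CARM1 knockout tumors (26.7%, against 38.7% of all peaks tested and 19% of the 20857 start-site peaks of all genes) and 19 lower (31.7%, against 32.4% of all peaks and 35.1% of start-site peaks). In NFIB mutant tumors 18 were called higher (30%, against 39.3% of all peaks and 19.4% of start-site peaks) and 22 lower (36.7%, against 34% of all peaks and 39.6% of start-site peaks). All 6 mutant libraries lay above TKO for 13 member peaks (33.1% of all peaks did so) and below for 21 (28.6% of all peaks). The median log2 fold change of member peaks was -0.26 and -0.20, between that of all start-site peaks, -0.32 and -0.38, and that of all peaks, 0.22 and 0.22. Without CARM1 knockout replicate 3, the test of that genotype against TKO gave 15 member peaks higher and 19 lower. Higher calls then made up 44.1% of member peak calls, in place of 45.7%, and 53.9% over all peaks, in place of 54.4%.

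These directions depended on how libraries were scaled. Scaling by library totals moved the median of all peaks up by 0.58 and 0.57 on the log2 scale. With it 21 member peaks were higher and 5 lower in the CARM1 knockout, against 21 and 9 in the NFIB mutant. Higher peaks then made up 80.8 and 70% of calls, in place of 45.7 and 45%, and among all peaks 65.9 and 64.3%, in place of 54.4 and 53.6%. Scaling by start-site peaks of uniformly expressed genes, close to the study's own method, moved the median up by 0.35 and 0.42 and gave 18 higher and 10 lower, and 21 higher and 14 lower, or 64.3 and 60% of calls, against 61.8 and 61.8% among all peaks. Every peak called higher was still called higher under both scalings, while of 19 peaks called lower in CARM1 knockout 5 and 10 were still called, and of 22 in NFIB mutant tumors 9 and 14. Peaks called lower in both mutants under every alternative were those of Inha, Acvr1c and Smad9.

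The peak with the most counts of each gene is called its main peak here. At the ligand genes, the starts of Tgfb1 and Inhba opened and that of Inha closed. The Tgfb1 start (chr7:25686341-25690393) had 20.8, 16.7 and 18 CPM for TKO, 41.4, 46.5 and 44.1 CPM for CARM1 knockout and 36.2, 40.5 and 38.7 CPM for NFIB mutant. All mutant libraries were higher, with log2 fold changes of 1.25 ± 0.15 and 1.05 ± 0.15 (adjusted p = 0.000102 and 0.000208). The main Inhba peak (chr13:16011251-16013598) had 1.66, 7.23 and 6.63 CPM for TKO, 19.2, 25.9 and 18.5 CPM for CARM1 knockout and 19.4, 20.2 and 18 CPM for NFIB mutant, higher in all mutant libraries, with log2 fold changes of 2.04 ± 0.44 and 1.89 ± 0.44 (adjusted p = 0.00247 and 0.00332). The Inha peak (chr1:75505023-75507466), which Obsl1 shares, had 73.0, 85.8 and 61.6 CPM for TKO, 14.6, 10.9 and 18.2 CPM for CARM1 knockout and 15.1, 20.6 and 25.7 CPM for NFIB mutant. All its mutant libraries were lower, with log2 fold changes of -2.34 ± 0.25 and -1.84 ± 0.25 (adjusted p = 6.28e-05 and 0.000165). The main Bmp4 peak, at the start of a non-coding transcript and shared with Gm15222, was called higher without a called transcript, at 1.85 and 1.87. CARM1 knockout replicate 3, at 7.28 CPM, and NFIB mutant replicate 2, at 9.09 CPM, overlapped the TKO maximum of 10.5 CPM. The coding starts of Bmp4 lie in another peak (chr14:46390039-46390810), whose calls did not hold in every alternative. The peaks of Bmp2, Gdf6 and Gdf11 were called lower in both mutants, that of Gdf10 in CARM1 knockout and that of Bmp7 in NFIB mutant tumors, and those of Tgfb2, Inhbb, Bmp3, Bmp6 and Gdf5 were not called. The main Bmp1 peak, at an internal start of a non-coding transcript, opened by 1.42 in CARM1 knockout, a call lost without CARM1 knockout replicate 3, and was not called at 0.88 in NFIB mutant tumors. A broader peak over the outer start of Bmp1 (chr14:70514994-70521482) is not among the 60, because its middle lies outside the start window. It was not called, at 0.10 and 0.25 (adjusted p = 0.702 and 0.335).

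Among receptors, the Tgfbr2 start opened. Its peak (chr9:116173170-116176186), which holds the promoter printed above, had 4.94, 5.22 and 11.8 CPM for TKO, 27.2, 40.2 and 23.8 CPM for CARM1 knockout and 28.2, 31.5 and 31.0 CPM for NFIB mutant. All 6 mutant libraries lay above TKO, and the log2 fold change was 2.06 ± 0.34 and 2.05 ± 0.34 (adjusted p = 0.000593 and 0.000538). The main peak of Acvr2b (chr9:119401217-119404035) had 64.0, 66.9 and 56.7 CPM for TKO, 32.9, 30.1 and 37.5 CPM for CARM1 knockout and 27.9, 36.0 and 28.2 CPM for NFIB mutant. Its log2 fold changes were -0.90 ± 0.16 and -1.03 ± 0.16 (adjusted p = 0.000814 and 0.000362), calls lost with scaling by library totals at -0.31 and -0.45. The main peaks of Tgfbr1 and Bmpr1a, whose transcripts were not called, were not called either, at -0.17 and -0.12 for Tgfbr1 and -0.19 and -0.19 for Bmpr1a. Bmpr2 was called lower in NFIB mutant tumors alone (-0.56, against -0.37 in CARM1 knockout), a call that scaling by totals turned to 0.02 and that was lost without NFIB mutant replicate 1. The Acvr2a peak was below TKO in all mutant libraries without a call, at -0.47 and -0.44, and the peaks of Acvr1, which Upp2 shares, and of Acvr1c were called lower, the former at -0.61 and -0.69 and the latter at -1.71 and -1.99. The main Acvrl1 peak was called higher in NFIB mutant tumors (1.06, adjusted p = 0.0664), a call lost without NFIB mutant replicate 3, TKO replicate 2 or TKO replicate 3, and was not called in CARM1 knockout tumors at 0.46. The main Bmpr1b peak was called lower in NFIB mutant tumors, at -1.35, and not in CARM1 knockout tumors, at -0.57.

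At the co-receptors, the Eng start opened and the Tgfbr3 start was not called. The Eng peak (chr2:32645785-32648136), which holds the promoter printed above, had 1.91, 1.79 and 1.10 CPM for TKO, 15.4, 8.54 and 9.84 CPM for CARM1 knockout and 6.01, 16.9 and 17.6 CPM for NFIB mutant. The TKO maximum of 1.91 CPM lay under the mutant minimum of 6.01 CPM, and the log2 fold change was 2.81 ± 0.47 and 3.07 ± 0.48 (adjusted p = 0.000681 and 0.000393). Another Eng peak, at an internal start, was called higher too, at 1.57 and 1.61. The Tgfbr3 peak was at 0.46 and 0.34 and was not called, although its transcript rose by 4.50 and 5.08, and it was called higher under both other scalings.

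At the SMAD genes, peaks at different starts of 1 gene moved apart. Smad9 (chr3:54754867-54756817) had 45.4, 40.3 and 43.2 CPM for TKO, 15.3, 14.4 and 17.1 CPM for CARM1 knockout and 11.6, 11.7 and 14.7 CPM for NFIB mutant. All mutant libraries lay below TKO, at -1.46 ± 0.18 and -1.76 ± 0.18 (adjusted p = 0.000115 and 4.11e-05). At Smad3 the peak with the most counts lay at an internal start (chr9:63664736-63668125) and was called lower in NFIB mutant tumors at -1.59, with -0.73 in CARM1 knockout. A peak at another internal start of Smad3 (chr9:63741976-63744391) had 4.08, 2.04 and 1.61 CPM for TKO, 17.8, 22.8 and 16.3 CPM for CARM1 knockout and 21.0, 20.5 and 25.7 CPM for NFIB mutant and opened by 2.87 ± 0.35 and 3.12 ± 0.35 (adjusted p = 0.00012 and 7.19e-05). The broad peak over the start of the long Smad3 transcript (chr9:63754345-63759145), whose middle lies 1249 bp from that start and which therefore is not among the 60, was also higher, at 0.83 and 0.95 (adjusted p = 0.00156 and 0.000695). The main peaks of Smad2, Smad4, Smad5 and Smad7 were not called, and that of Smad1 was called lower, at -0.51 and -0.73, with the sign turned by scaling to library totals in CARM1 knockout tumors. Peaks of Smad6, Tgfb3, Acvr1b and Gdf15 lay over the start window without their middle in it, and of these only that of Tgfb3 passed the threshold, lower in NFIB mutant tumors at -0.61 (adjusted p = 0.0417).

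The antagonist genes opened at Grem1, Fst and Fstl1. The log2 fold changes of their main peaks were 1.15 ± 0.39 and 1.29 ± 0.39 (adjusted p = 0.0220 and 0.0125) for Grem1. They were 0.69 and 0.88 for Fst and 0.74 and 0.64 for Fstl1, with all mutant libraries above TKO. At Fstl3 the peak at the coding start opened by 1.19 and 0.75, while the main peak at the start of a non-coding transcript closed, at -0.77 and -1.20. The call of the coding-start peak in NFIB mutant tumors did not hold in every alternative. Bambi was called lower at -0.62 and -0.72, Chrd was called lower in CARM1 knockout at -0.78 and not in NFIB mutant tumors at -0.39, and Nog was not called.

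At the ID genes, 3 of 4 starts closed. Id2 (chr12:25094572-25101325) had 137, 145 and 129 CPM for TKO, 60.6, 61.3 and 73.0 CPM for CARM1 knockout and 58.9, 79.3 and 59.1 CPM for NFIB mutant, at -1.08 ± 0.15 and -1.06 ± 0.15 (adjusted p = 0.000209 and 0.000199). Id1 (chr2:152734261-152737254) had 86.1, 53.7 and 60.5 CPM for TKO, 25.9, 28.8 and 29.7 CPM for CARM1 knockout and 36.3, 29.2 and 34.4 CPM for NFIB mutant, at -1.25 ± 0.19 and -1.0 ± 0.19 (adjusted p = 0.000364 and 0.00102), so that its peak was called lower although its transcript was not. Id4 (chr13:48260426-48263038) closed, at -0.87 and -0.84, and no mutant library of these 3 genes overlapped TKO. Id3 (chr4:136141853-136149524) had 48.9, 62.5 and 62.2 CPM for TKO, 65.2, 70.9 and 59.3 CPM for CARM1 knockout and 75.3, 72.8 and 78.6 CPM for NFIB mutant. All NFIB mutant libraries lay above TKO while the CARM1 knockout libraries overlapped it, and neither difference reached the minimum fold change, at 0.17 and 0.39, although the transcript rose. It was called higher under both other scalings. With library totals the Id2 and Id4 calls were lost in both mutants, at -0.49 and -0.31 in CARM1 knockout tumors, and the Id1 call was lost in NFIB mutant tumors, at -0.44. The Id4 call in NFIB mutant tumors was also lost with scaling by start-site peaks, at -0.43.

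**Figure D5:**
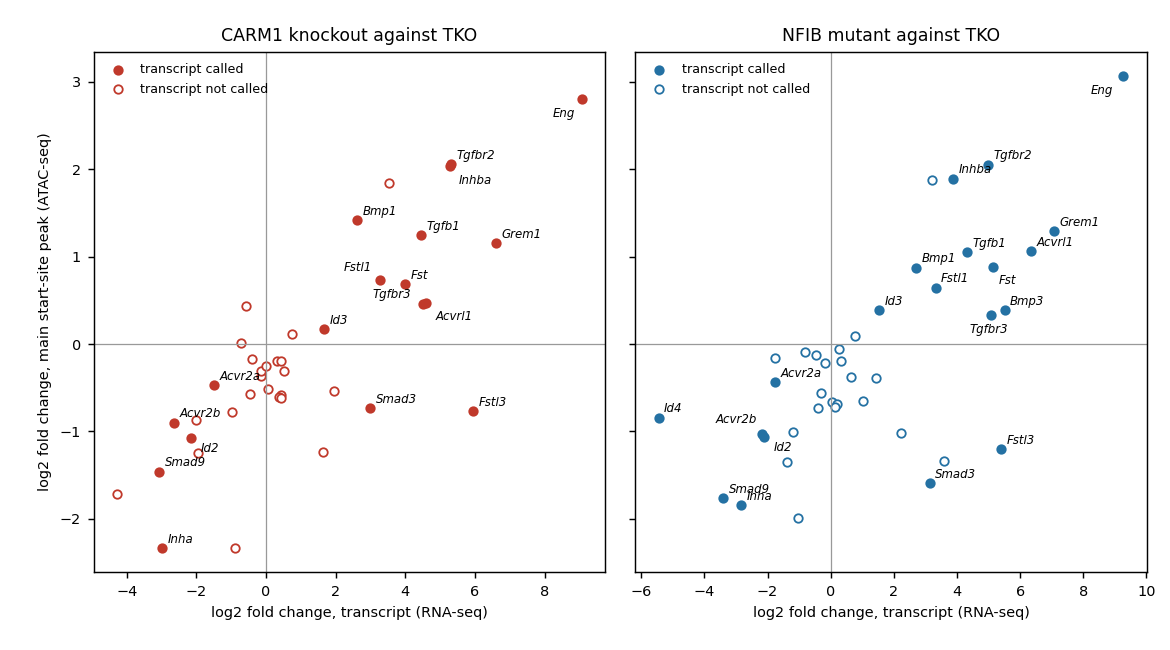
Log2 fold change of the transcript (RNA-seq) against that of the gene's main start-site peak (ATAC-seq), 1 panel per mutant against TKO and 1 point per gene with both values. Tgfbr2, Eng, Inhba and Tgfb1 lie in the upper right and Inha, Smad9 and Acvr2b in the lower left, while Fstl3 has a higher transcript beside a lower main peak.

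The calls of transcripts and of main peaks were set side by side. Of the 15 members called higher in CARM1 knockout tumors, 8 had a main peak called higher (53.3%, against 35.9% of the 3185 genes called higher), 1 a peak called lower (Fstl3, a call lost under both other scalings and without TKO replicate 3), 4 a peak not called and 2 no start-site peak. Of the 16 called higher in NFIB mutant tumors, 8 had a main peak called higher (50%, against 34.9% of the 3459 genes called higher), 2 a peak called lower (Fstl3 and Smad3), 4 a peak not called and 2 no peak. Of the 5 members called lower in CARM1 knockout tumors 4 had a peak called lower (80%, against 57.1% of all genes called lower), and of the 6 in NFIB mutant tumors 5 had one (83.3%, against 64.3%), with Acvr2a the exception in both. Of members whose transcript was not called, 10 and 9 had a main peak called lower (40 and 39.1%, against 33.3 and 38.2% of such genes) and 1 each a main peak called higher. Some main peaks, such as that of Bmp1, lay at internal starts. These counts are a description and were not tested.

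Promoter windows from RefSeq were used for 34 of the 50 genes, 41 windows in all. Windows on chromosome 18, where Smad7 lies, were left out for the members but not for all genes. The median GC content of the 41 was 66.3%, against 52.7% over the 32851 windows of all genes. Motifs were searched on both strands. The NFI core TTGGCA was in 5 of 41 windows (12.2%, against 14.1% of all windows), those of Inha, Inhbb, Eng, Tgfbr1 and Smad1. The SMAD palindrome GTCTAGAC, which reads the same on both strands, was in 1 window (2.44%, against 0.213%), that of Smad6. The BMP SMAD motif GGCGCC, also its own reverse complement, was in 12 windows (29.3%, against 11.9%), among them Smad9, Id2, Id4, Grem1, Smad5 and Bmpr2. The transcripts of these genes went in different directions or were not called. Overlapping windows of Smad5 held the same match, which was counted in each of them. No pair of these motifs can share a base, and a match is a description of the window only.

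Between the mutants no member was called. Of the 45 tested genes, 0 differed between CARM1 knockout and NFIB mutant tumors in edgeR's test (0% of all genes called higher and 0% lower), with the smallest adjusted p at 0.524. At an unadjusted p under 0.05 stood 2 members, Smad1, higher, and Chrd, lower in CARM1 knockout, and 1414 of all genes. DESeq2 called 1 member, Chrd, among 540 genes. Of the 60 peaks 0 were called (0% of all peaks higher and 0% lower), with 2 peaks, both internal to Acvrl1, and 6813 of all peaks at an unadjusted p under 0.05, and no member peak by DESeq2. The precision of these differences varied by gene. The log2 difference, CARM1 knockout minus NFIB mutant, was 0.03 ± 0.19 for Smad2 and 0.16 ± 0.24 for Bmpr2, but -0.46 ± 1.06 for Grem1 and 3.44 ± 1.68 for Id4, so sizeable differences in the latter were not detectable with 3 libraries each. An exact permutation test of 1 value in 3 against 3 libraries cannot give a two-sided p under 0.1.

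Genes of the pathway outside the 50 were read from 5 lists. As given above, the share of all genes tested with a call was 20.5% (higher) and 18.3% (lower) for the CARM1 knockout, and 22.3% (higher) and 23.5% (lower) for the NFIB mutant. Of 12 genes that keep TGF-beta latent or activate it, 11 were tested and 9 were called higher in CARM1 knockout tumors (81.8%) and 8 in the NFIB mutant (72.7%), with none lower. Ltbp2, a matrix protein of the latent TGF-beta binding family, was at 0.0961, 0.831 and 0.399 CPM for TKO, 218, 124 and 245 CPM for CARM1 knockout and 19.8, 179 and 22.9 CPM for NFIB mutant. Lrrc32, which docks latent TGF-beta on the cell surface, was at 0.0480, 0.262 and 0 CPM for TKO, 335, 164 and 492 CPM for CARM1 knockout and 123, 151 and 46.8 CPM for NFIB mutant, and Fbn1, which encodes the microfibril protein fibrillin that holds latent complexes, at 4.80, 3.37 and 0.532 CPM for TKO, 432, 408 and 726 CPM for CARM1 knockout and 396, 881 and 324 CPM for NFIB mutant. The log2 fold changes were 8.75 and 7.35 for Ltbp2, 11.53 and 9.90 for Lrrc32 and 7.49 and 7.52 for Fbn1, and no mutant library overlapped TKO in any of them. Ltbp2 and Lrrc32 were near the limit of detection in TKO, so the size of their changes is poorly determined.

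Of 10 known target genes 9 were tested, and 6 were called higher (66.7%) and 1 lower (11.1%) in both mutants. Of all genes 20.5 and 22.3% were called higher and 18.3 and 23.5% lower. Ccn2, the gene of a matricellular growth factor, was at 3.65, 0.656 and 0.576 CPM for TKO, 75.7, 71.7 and 112 CPM for CARM1 knockout and 9.30, 18.9 and 87.5 CPM for NFIB mutant (log2 fold changes 5.73 and 4.57). Snai1, a transcription factor of epithelial to mesenchymal transition, was at 1.83, 1.14 and 0.620 CPM for TKO, 99.7, 103 and 92.2 CPM for CARM1 knockout and 89.5, 50.8 and 43.8 CPM for NFIB mutant (6.36 and 5.68). Both were higher in every mutant library than in any TKO library. The target called lower was Hey1, a bHLH repressor, at -3.40 and -5.27, named here because it was the only one.

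Of 14 other secreted antagonists and co-receptors 9 were tested, and 3 were called higher in CARM1 knockout tumors (33.3%) and 4 in the NFIB mutant (44.4%), with none lower. Bmper and Nbl1, whose products bind BMPs, had log2 fold changes of 6.80 and 6.5 for Bmper and 1.73 and 2.64 for Nbl1. Of 16 intracellular regulators 15 were tested, of which the CARM1 knockout had 3 calls higher (20%) and 1 lower (6.67%), and the NFIB mutant 2 (13.3%) and 1 (6.67%), at or below the shares of all genes. Among these Smurf1, a ubiquitin ligase for SMADs and receptors, changed by 1.84 and 1.87, Ski, a repressor of SMAD complexes, by 1.03 and 0.81, and Trim33, a SMAD4 regulator, by -1.23 and -1.36. Of 16 other ligands, such as nodal and myostatin, 3 were tested, and Lefty1 was called higher and Amh lower in both mutants, both named because no other was called. The 16 genes together summed to at most 12.2 CPM in a library. No gene of this list, Lefty1 included, had all mutant libraries above TKO.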

How the data were processed

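RNA-seq and ATAC-seq counts of 9 libraries per assay were used. The authors trimmed the RNA-seq reads, mapped them with HISAT2 to GRCm38 (mm10) and deposited unnormalized counts per gene from htseq-count. For ATAC-seq the authors mapped with Bowtie2, removed duplicates, called peaks (MACS2 in the methods, Genrich in the submitters' processing notes), left out regions of putative copy number change and deposited unnormalized counts per peak, made with featureCounts 1.6.3 per the file headers. Counts over whole genes do not separate isoforms, and the strand setting of the counting is not given in the sources used here. Columns lettered C, KO and N were read as TKO, CARM1 knockout and NFIB mutant from the study's legends. The 5 summary rows of the RNA-seq table were left out of totals, and they held 11.6 to 21.2% of its reads.

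Both tables were fitted whole in edgeR 4.0.16 (R 4.3.3, limma 3.58.1) with TMM factors, filterByExpr and robust quasi-likelihood tests over all 9 libraries, with Benjamini-Hochberg adjustment. DESeq2 1.42.0, library totals, no filter, a replicate block, only the compared groups, another ATAC-seq scaling (1628 start-site peaks of 1322 uniformly expressed genes), any overlap with the start window and leaving out each library were alternatives. The fits were tested on simulated data. Transcript starts and exon lengths came from the GENCODE annotation, which held 45143 of the 46078 genes, and promoters from RefSeq on GRCm38.p6. Summaries and plots used Python 3.11.15, numpy 2.4.6, pandas 2.3.3 and matplotlib 3.10.9.

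Members and lists were chosen with earlier results of these data known. Genes with values per library were those called in both mutants in 1 direction with a mean of at least 10 CPM, at most 4 per role, and 12 core genes whatever their call, with at most 3 from each outside list. Other genes are given by ranges or, near a threshold, in full, as chosen after their values were seen. Gdf1 of the outside lists was not matched. Some genes counted in the lists are not reported here by name. Same-numbered libraries of different genotypes did not deviate together (correlations of -0.30 to 0.12 in RNA-seq and -0.14 to 0.12 in ATAC-seq), so numbers were not taken as pairs.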

Additional observations from a re-analysis of the deposited data

How the results depend on the processing

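Calls held in every alternative for 17 of 20 transcripts in CARM1 knockout and 17 of 22 in NFIB mutant tumors, and for 19 of 35 and 23 of 40 peaks. Under library totals the ATAC-seq count of lower member peaks went from 19 to 5 and from 22 to 9, and under start-site scaling to 10 and 14, and the Bmpr2 peak in NFIB mutant tumors changed sign, to 0.0213 on the log2 scale. DESeq2 called 1 transcript between the mutants. Leaving out each library gave 14 to 16 higher and 4 to 6 lower transcripts in CARM1 knockout and 15 to 18 and 5 to 9 in NFIB mutant tumors. These fits tested 47 to 49 members, in place of 45. Higher calls made up 71.4 to 80% and 62.5 to 78.3% of member calls, against 50 to 58% and 49.5 to 52.8% over all genes. For peaks the fits gave 15 to 18 higher and 13 to 21 lower in CARM1 knockout and 16 to 19 and 20 to 23 in NFIB mutant tumors. Higher calls made up 41.7 to 56.7% and 43.2 to 47.5% of member peak calls, against 53.3 to 55.3% and 52.5 to 54.5% over all peaks. The lowest count of lower peaks in CARM1 knockout, 13, came without CARM1 knockout replicate 1, and the highest of lower transcripts in NFIB mutant tumors, 9, without NFIB mutant replicate 1. The replicate block gave 15 higher and 6 lower and 15 and 7 transcripts, 15 and 18 and 17 and 22 peaks, and 0 calls between the mutants. With it higher calls made up 71.4 and 68.2% of member transcript calls, against 54.1 and 49.7% over all genes. They made up 45.5 and 43.6% of member peak calls, against 55 and 53.7% over all peaks. RNA-seq by library totals moved the median of all genes by -0.27 and -0.33 and gave 15 higher and 7 lower, and 13 and 7, with no called member changing sign. Higher calls then made up 68.2 and 65% of member calls, in place of 75 and 72.7%. Over all genes they made up 39.4 and 35.8%, in place of 52.9 and 48.7%. Single libraries decided the calls of Gdf15, Bmp3, Acvr2a, Id2 and Id4. The cause of these changes was not tested. TKO levels of Eng, Acvrl1 and Fstl3, and of Ltbp2 and Lrrc32 outside the members, lay near the limit of detection.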
